A study of Mus musculus with 8 samples.

Results

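The 9 genes *Pik3cd*, *Pik3r1*, *Pik3ip1*, *Akt1*, *Foxo1*, *Foxo3*, *Rptor*, *Tsc1* and *Mtor* encode parts of the pathway that runs from phosphoinositide 3-kinase (PI3K) through AKT to mTOR and the FOXO factors. They were chosen by name, with earlier results of these data known. Each was matched to its row among the 54838 Ensembl genes counted in mouse natural killer (NK) cells. All 9 passed the filter on low counts that left 13903 genes for testing. Of the 9, *Pik3r1*, *Foxo3*, *Rptor* and *Foxo1* were higher and *Tsc1* was lower in NK cells of tumour-bearing mice, and *Pik3cd*, *Pik3ip1*, *Akt1* and *Mtor* were not called in either direction. The call of *Tsc1* was narrow and was lost in 9 of 18 alternative settings. Among all tested genes, 51.9% were called.

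The cells came from spleen and were sorted as CD45+, CD49b+ and CD3-. The hNK group holds 4 libraries from healthy wild-type FVB/n mice. The teNK group holds 4 libraries from MMTV-PyMT mice, in which a mammary promoter drives the polyoma middle T oncogene. Whether the NK cells expressed the transgene was not tested. Transgene, tumour and any difference in strain or age between the groups cannot be told apart here. All 8 cultures were kept for 12 to 16 h in medium with cytokines before RNA was taken, a treatment both groups share. Not given in the sources used here are the strain of the MMTV-PyMT mice, the age of all mice, the cytokines and how many animals a library holds. Since no label says whether libraries of a group came from separate animals, p-values speak only for the spread among these libraries, and that spread may be technical.

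Class I PI3K is made of a catalytic and a regulatory subunit, and it is switched on by receptors at the cell membrane, where it makes a lipid that recruits the kinase AKT. AKT phosphorylates FOXO transcription factors, which then leave the nucleus, and it inactivates the TSC complex, which otherwise holds back the growth kinase complex mTORC1. In NK cells this pathway is known to act below activating receptors and the IL-15 receptor and to support maturation, metabolism and cytotoxicity, while FOXO1 is known as a brake on NK cell maturation.

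The shallowest hNK library had 5202131 reads on genes and the deepest 12419324, while the teNK libraries had 13111043 to 16209895, so counting error was larger in hNK. Several sequencing lanes are mentioned only for teNK libraries, so lane layout and group cannot be told apart. Markers of NK cells were high in every library and also differed between groups: 12 marker genes summed to 7326 to 8321 CPM (read counts scaled to library size with TMM factors) in hNK and to 13732 to 14209 CPM in teNK, with 11 called higher and 1, *Eomes*, lower (median log2 ratio 1.08). The largest part was *Ptprc*, which encodes CD45 and is not specific to NK cells, at 3567 ± 132 CPM in hNK and 5333 ± 115 CPM in teNK (SD, n = 4). Of the CD3 chain genes, *Cd3e* was at 2.18 ± 1.46 CPM in hNK and 1.43 ± 0.540 CPM in teNK, *Cd3d* at 2.25 ± 0.930 and 4.91 ± 0.527 CPM, and *Cd3g* at 20.2 ± 8.46 and 23.0 ± 2.95 CPM (SD, n = 4). *Cd3d* among them was called higher. Markers of other cells moved with the groups too. Of 11 tested B cell markers 10 were higher in teNK, with a median log2 ratio of 4.02. The list of 12 summed to 88.0 to 130 CPM in hNK and 142 to 176 CPM in teNK, of which *Ighm*, not called, made 95.8 ± 17.8 and 96.5 ± 6.99 CPM. Of 11 tested platelet markers 10 were higher, with a median log2 ratio of 3.93. Their sums were 98.8 to 137 CPM and 245 to 394 CPM, of which *Itgb3*, not called, made 92.0 ± 14.6 and 80.8 ± 8.86 CPM. Every B cell marker had reads in both groups, with *Ms4a1* at 0.419 ± 0.512 and 8.02 ± 2.16 CPM, and of the platelet markers only *Gp1bb* had none in hNK. Monocyte, macrophage and granulocyte markers summed to 4.05 to 6.07 CPM and 13.1 to 20.9 CPM (2 of 3 tested higher; *Csf3r*, *Ly6g*, *Mpo*, *S100a8* and *S100a9* without reads in hNK), and dendritic cell markers to 17.0 to 22.8 CPM and 72.4 to 94.4 CPM (1 of 3 tested higher; *Clec9a* and *Xcr1* without reads in hNK). That 1 gene, *Itgax*, rose from 7.61 ± 2.08 CPM in hNK by a log2 ratio of 3.27 and made most of the rise of the sum. Erythroid markers reached 0.542 CPM in hNK and 10.9 CPM in teNK. Mammary and epithelial markers summed to 20.96 to 27.6 CPM in hNK and 3.90 to 6.83 CPM in teNK, with 2 of 3 tested lower. *Cdh1* alone went from 15.8 ± 2.41 to 0.885 ± 0.281 CPM, and *Csn2*, *Krt14*, *Krt8* and *Wap* had no reads in either group. T cell markers summed to 287 to 328 CPM and 280 to 301 CPM, with 2 higher and 2 lower of 8 tested. Most of these sums was *Trbc1*, at 236 ± 15.4 CPM in hNK and 217 ± 6.95 CPM in teNK, while *Trac* was at 5.19 ± 0.818 and 5.23 ± 0.674 CPM. The part of these cells in the results that follow was not tested. In bulk libraries, fewer cells of a type and less RNA per cell cannot be told apart.

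Of the 9 genes, 4 were called higher and 1 lower at an adjusted p under 0.05 (edgeR quasi-likelihood test, Benjamini-Hochberg over all tested genes). Among all 13903 tested genes 26.4% were called higher and 25.6% lower, so the split of the 9 is read against a background in which 51.9% of genes were called. With scaling by library size alone, 34.6% of all calls were higher in place of 50.7%, and *Akt1* and *Mtor* were then called lower. The groups did not overlap for 5 of the 9 genes, against 46.5% of all tested genes. All 4 teNK libraries lay above hNK for 4 of the 9 (24.1% of all genes) and below for 1 (22.4%). The median log2 ratio (teNK over hNK) was 0.27 for the 9 genes and -0.02 for all genes. Only *Pik3r1* changed by at least 2-fold, a size that 14.2% of all tested genes reached.

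**Figure D1:**
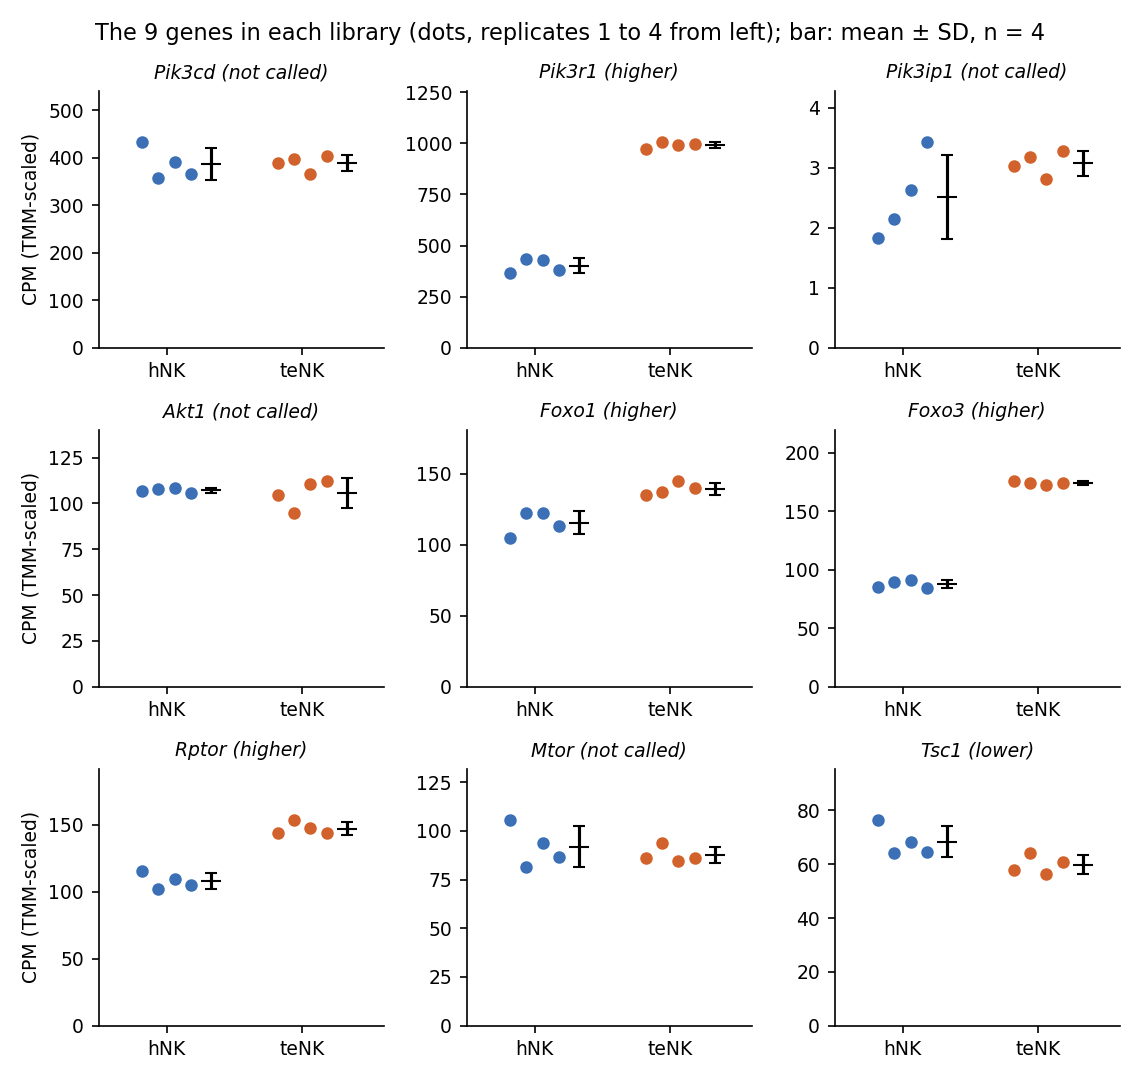
Expression of the 9 genes in CPM (y axis from 0, a scale of its own in each panel) in the 4 hNK and 4 teNK libraries; each dot is 1 library, and the bar is the mean ± SD. The dots of *Pik3r1*, *Foxo3*, *Rptor* and *Foxo1* lie higher in all 4 teNK libraries than in any hNK library, those of *Tsc1* just below the hNK dots, and those of the other 4 genes overlap.

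*Pik3r1* (ENSMUSG00000041417, chromosome 13, 101680563 to 101768217, minus strand), which encodes the regulatory subunit that stabilises the catalytic subunit and docks it to phosphorylated receptors, had the largest rise of the 9. It measured 364, 436, 427 and 380 CPM in hNK and 972, 1007, 991 and 995 CPM in teNK (replicates 1 to 4 in this order, as in all such lists). All 4 teNK libraries stood at more than double the level of every hNK library, and they lay closer together than the hNK libraries. The mean went from 402 ± 35.3 to 991 ± 14.3 CPM (SD, n = 4), a log2 ratio of 1.30 ± 0.07 (SE) with an adjusted p of 2.19e-10. That is 2.47-fold, larger in size than the change of 90.6% of all tested genes.

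*Pik3r1* has more than 1 start, and transcripts from an inner start encode shorter regulatory subunits, so the sequences before both starts are shown to make visible what a count per gene joins. The count does not separate these transcripts. Both come from RefSeq (GRCm38.p6), read 5′ to 3′ on the minus strand up to the base before the start. The outer one is chr13:101768218-101768467, with 76.4% G and C, and the inner one is chr13:101692631-101692880, with 42.4%. The median over 32851 windows of RefSeq starts was 52.4%.
Pik3r1 outer start: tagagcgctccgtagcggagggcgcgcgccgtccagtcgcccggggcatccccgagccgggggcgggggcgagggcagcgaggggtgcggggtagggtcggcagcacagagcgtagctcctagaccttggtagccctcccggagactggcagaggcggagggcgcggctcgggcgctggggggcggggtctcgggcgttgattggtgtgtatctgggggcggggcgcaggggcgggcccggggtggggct
Pik3r1 inner start: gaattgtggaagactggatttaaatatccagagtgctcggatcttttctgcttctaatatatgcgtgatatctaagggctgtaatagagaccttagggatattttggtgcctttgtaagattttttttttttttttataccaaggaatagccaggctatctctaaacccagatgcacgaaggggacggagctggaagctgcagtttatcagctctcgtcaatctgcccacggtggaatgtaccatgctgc
The outer sequence is rich in runs of G and C, and the inner one holds a long run of T.

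*Pik3cd* (ENSMUSG00000039936, chromosome 4, 149649168 to 149702571, minus strand) encodes p110 delta, the catalytic subunit typical of lymphocytes. Its hNK libraries measured 433, 357, 390 and 366 CPM and its teNK libraries 389, 398, 366 and 403 CPM. The 4 teNK values lay within the range of the hNK values, whose highest was replicate 1. The log2 ratio was 0.01 with a 95% interval of -0.14 to 0.16 (adjusted p = 0.923, edgeR).

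*Pik3ip1* (ENSMUSG00000034614, chromosome 11, 3330401 to 3342971, plus strand) encodes a membrane protein that inhibits PI3K. It had the fewest reads of the 9, 16 to 27 per hNK library and 35 to 50 per teNK library. The hNK libraries measured 1.83, 2.14, 2.64 and 3.43 CPM and the teNK libraries 3.03, 3.17, 2.81 and 3.29 CPM. hNK replicate 4 lay above every teNK library and the other 3 hNK libraries below. The log2 ratio was 0.37 with a 95% interval of -0.10 to 0.84 (adjusted p = 0.179, edgeR), and the interval held both no change and a rise of 1.79-fold. The log2 ratio was 0.23 without hNK replicate 1 and 0.62 without both shallow hNK libraries, replicates 3 and 4 (adjusted p = 0.444 and 0.0529, edgeR), so it was not called there either. Of its exon bases, 2.13% are shared with *Gm12592* on the other strand, and the strand setting of the counting is not given.

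*Akt1* (ENSMUSG00000001729, chromosome 12, 112653821 to 112674884, minus strand), the kinase that PI3K activates, measured 107, 108, 108 and 106 CPM in hNK and 105, 94.6, 111 and 112 CPM in teNK. The hNK libraries lay close together, and the teNK libraries spread to both sides of them. The log2 ratio was -0.02 with a 95% interval of -0.16 to 0.11 (adjusted p = 0.796, edgeR). The sequence before its outer start is shown because it was the only one of 13 windows of the 9 genes that held the core letters bound by FOXO factors, GTAAACA or TGTTTAC on the other strand. It is chr12:112674885-112675134 (RefSeq, GRCm38.p6, 5′ to 3′ on the minus strand), with the match in capitals.
Akt1 outer start: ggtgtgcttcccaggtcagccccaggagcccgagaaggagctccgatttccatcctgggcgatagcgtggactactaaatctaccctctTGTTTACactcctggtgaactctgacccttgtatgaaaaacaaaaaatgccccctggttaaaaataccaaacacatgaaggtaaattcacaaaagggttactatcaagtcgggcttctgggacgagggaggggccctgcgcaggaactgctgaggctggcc
The match lies 161 to 155 bases before the start. Of all 32851 windows of 250 bases, 3.17% held these letters. Letters for 2 other motifs, CACGTG (6.02% of all windows) and TGACGTCA (1.55%), both of which read the same on both strands, were in none of the 13. A match describes the letters only.

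*Foxo3* (ENSMUSG00000048756, chromosome 10, 42181841 to 42276755, minus strand) encodes a FOXO factor known for genes of cell cycle arrest and cell death. It measured 84.97, 89.8, 90.9 and 84.4 CPM in hNK and 176, 174, 173 and 174 CPM in teNK. The teNK libraries lay close together and far above every hNK library. The mean went from 87.5 ± 3.31 to 174 ± 1.34 CPM (SD, n = 4), a log2 ratio of 0.99 ± 0.06 (SE, adjusted p = 3.50e-10, edgeR), or 1.99-fold. The sequence before its start, shown for comparison with *Pik3r1* as the other gene near 2-fold, is chr10:42276756-42276945 (RefSeq, GRCm38.p6, minus strand). It ends 61 bases before the start, since GENCODE places the bases after it in an exon.
Foxo3 start: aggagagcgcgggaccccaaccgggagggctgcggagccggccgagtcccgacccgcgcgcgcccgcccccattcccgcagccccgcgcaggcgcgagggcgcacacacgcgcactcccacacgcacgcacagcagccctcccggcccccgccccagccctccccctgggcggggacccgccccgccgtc
Its 250-base window had 76.4% G and C, the same share as the outer *Pik3r1* window.

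*Foxo1* (ENSMUSG00000044167, chromosome 3, 52268336 to 52353221, plus strand) encodes the FOXO factor best known in lymphocytes for homing and quiescence genes. It measured 105, 122, 122 and 113 CPM in hNK and 135, 137, 145 and 140 CPM in teNK. The lowest teNK library was above the highest hNK library, with a gap smaller than the spread within hNK. The mean went from 115 ± 8.25 to 139 ± 4.35 CPM (SD, n = 4), a log2 ratio of 0.27 ± 0.06 (SE, adjusted p = 0.00206, edgeR). The call was lost with scaling by library size alone (log2 ratio 0.14, adjusted p = 0.0616) and in a test against 1.5-fold. An antisense gene, *Gm20402*, shares 7.78% of the *Foxo1* exon bases, and without the strand setting reads of the pair cannot be told apart there.

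*Rptor* (ENSMUSG00000025583, chromosome 11, 119602905 to 119899576, plus strand) encodes raptor, the scaffold that brings substrates to mTORC1. It measured 115, 102, 110 and 105 CPM in hNK and 144, 154, 147 and 144 CPM in teNK. All 4 teNK libraries lay above the hNK range. The mean went from 108 ± 5.78 to 147 ± 4.55 CPM (SD, n = 4), a log2 ratio of 0.44 ± 0.06 (SE, adjusted p = 1.10e-05, edgeR), or 1.36-fold. The call was kept in 17 of 18 alternatives and lost in the test against 1.5-fold.

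*Mtor* (ENSMUSG00000028991, chromosome 4, 148448611 to 148557683, plus strand), the kinase shared by mTORC1 and mTORC2, measured 106, 81.6, 94.0 and 86.5 CPM in hNK and 85.9, 93.8, 84.7 and 86.2 CPM in teNK. All teNK values lay inside the hNK range. The log2 ratio was -0.07 with a 95% interval of -0.23 to 0.09 (adjusted p = 0.465, edgeR).

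*Tsc1* (ENSMUSG00000026812, chromosome 2, 28641228 to 28691167, plus strand) encodes hamartin, a subunit of the complex that restrains mTORC1. It measured 76.5, 64.2, 68.1 and 64.7 CPM in hNK and 58.1, 64.2, 56.6 and 60.8 CPM in teNK. The highest teNK library and the lowest hNK library were nearly level. The mean went from 68.4 ± 5.68 to 59.9 ± 3.36 CPM (SD, n = 4), a log2 ratio of -0.19 ± 0.07 (SE, adjusted p = 0.0341, edgeR). This call was lost in 9 of 18 alternatives, among them leaving out hNK replicate 1 (log2 ratio -0.13, adjusted p = 0.118), hNK replicate 3 (-0.20, 0.0522), teNK replicate 1 (-0.17, 0.0961), teNK replicate 3 (-0.16, 0.110) and teNK replicate 4 (-0.20, 0.0621). hNK replicate 1 was the highest hNK library for *Tsc1*, *Mtor*, *Pik3cd* and *Rptor* alike and the lowest for *Foxo1*, *Pik3r1* and *Pik3ip1*.

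Levels were compared between genes per kb of exon. In hNK the order was *Pik3cd* at 61.8 ± 5.46 CPM per kb (SD, n = 4), *Pik3r1* at 39.9 ± 3.50, *Akt1* at 26.1 ± 0.291, *Foxo1* at 13.3 ± 0.952, *Foxo3* at 11.6 ± 0.437, *Mtor* at 9.10 ± 1.03, *Rptor* at 8.02 ± 0.429, *Tsc1* at 5.78 ± 0.480 and *Pik3ip1* at 0.588 ± 0.164. Only the neighbours *Mtor* and *Rptor* overlapped in range. In teNK *Pik3r1* came first at 98.4 ± 1.42 CPM per kb and *Pik3cd* second at 62.2 ± 2.61. *Foxo3* at 23.0 ± 0.177 CPM per kb stood above *Foxo1* at 16.0 ± 0.502, and *Rptor* at 10.9 ± 0.338 above *Mtor* at 8.67 ± 0.410. There the neighbours *Akt1* and *Foxo3* overlapped in range. So 3 pairs changed places: *Pik3r1* with *Pik3cd*, *Foxo3* with *Foxo1* and *Rptor* with *Mtor*. Exon length was that of all annotated exons of a gene merged, which understates the level where long exons are not used.

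**Figure D2:**
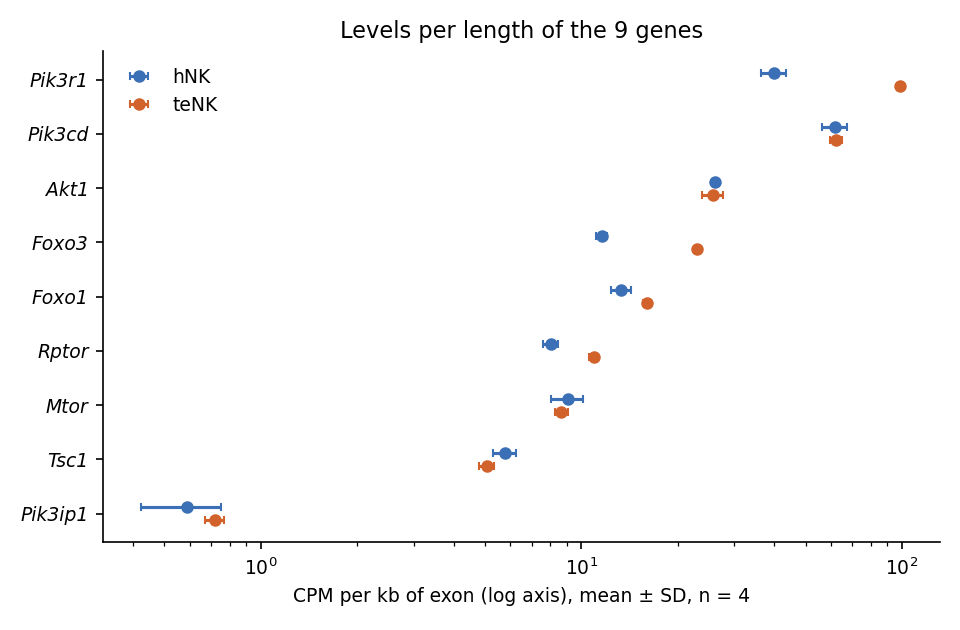
Level per length of the 9 genes (x axis, CPM per kb of merged exon, log scale; mean ± SD, n = 4) in hNK and teNK, ordered by the teNK mean. *Pik3r1* goes from 39.9 to 98.4 and *Foxo3* from 11.6 to 23.0 CPM per kb, while *Pik3cd*, *Akt1* and *Mtor* stay nearly in place.

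Within a library, a share of a gene family does not depend on how libraries are scaled. Of the per-kb level of the 3 FOXO genes *Foxo1*, *Foxo3* and *Foxo4*, *Foxo1* took 38.0%, 41.1%, 39.7% and 40.3% in the 4 hNK libraries and 32.9%, 32.8%, 34.3% and 33.6% in the 4 teNK libraries. Every teNK share was below every hNK share, although the CPM of *Foxo1* was higher in teNK, since *Foxo3* went from 34.5% ± 0.585 to 47.9% ± 0.988 of the family (SD, n = 4). *Foxo4*, the other FOXO gene, was at 30.0 ± 1.93 CPM in hNK and 31.3 ± 1.41 CPM in teNK and was not called. *Rptor* took 31.1% ± 0.695 of *Rptor* and *Rictor* together in hNK and 36.3% ± 1.04 in teNK, again with no overlap. *Rictor*, the scaffold of mTORC2, was at 300.4 ± 8.65 and 325 ± 21.1 CPM and was not called. Both shares gave the smallest p that 4 against 4 libraries allow in a two-sided exact permutation test, 0.0286, and neither passed after adjustment over the 5 shares tested, of which 4 are given here (adjusted p = 0.0714).

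*Pik3cd* held 48.6% ± 2.54 of the 4 class I catalytic genes in hNK and 47.6% ± 1.21 in teNK (SD, n = 4; exact permutation p = 0.486, also when adjusted). *Pik3r1* held 94.5% ± 1.18 and 95.6% ± 0.476 of *Pik3r1*, *Pik3r2* and *Pik3r3* (exact permutation p = 0.200, adjusted p = 0.250). *Pik3r1* was thus nearly the whole of this regulatory family in both groups.

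**Figure D3:**
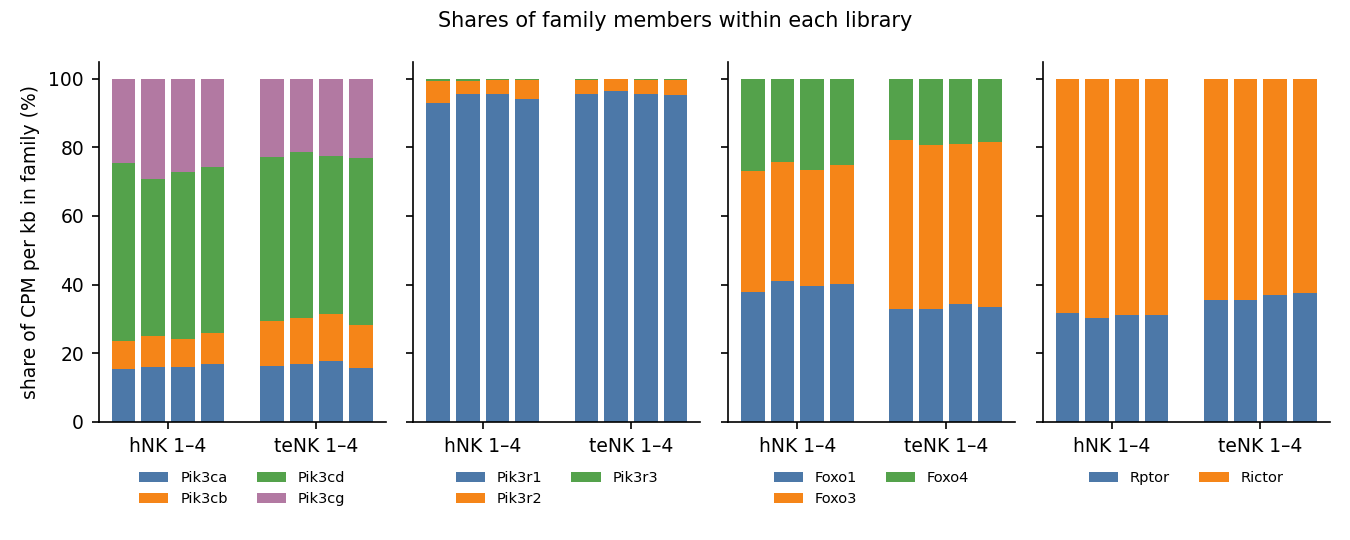
Share of each gene in the summed CPM per kb of its family (y axis, percent), with 1 bar per library, hNK 1 to 4 on the left and teNK 1 to 4 on the right of each panel. *Foxo3* takes 34.5% on average in hNK and 47.9% in teNK, and *Rptor* 31.1% and 36.3% of the pair with *Rictor*; *Pik3r1* fills at least 93.0% of its family in every library.

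Other genes of the pathway were counted in 11 lists, which with the 9 genes held 149 genes, 141 of them tested. Of these, 47 were called higher, 44 lower and 50 not, so 33.3% were higher and 31.2% lower, or 64.5% called, against 26.4%, 25.6% and 51.9% of all tested genes. All 11 lists were put together with earlier results of these data known, so their counts and medians give no independent evidence. Of 9 class I PI3K subunit genes, 5 rose and 1 fell, with a median log2 ratio of 0.68 against -0.02 for all tested genes; without *Pik3cd* and *Pik3r1* they were 4 and 1 of 7. *Pik3cb*, the catalytic subunit p110 beta, rose from 77.7 ± 2.56 to 125 ± 3.08 CPM (log2 ratio 0.68 ± 0.06, SE). *Pik3cg*, the catalytic subunit that acts below G protein-coupled receptors, fell from 285 ± 20.7 to 247 ± 10.04 CPM, while *Pik3r5*, its regulatory partner, rose from 226 ± 30.6 to 400.1 ± 34.6 CPM. The fall of *Pik3cg* was small (log2 ratio -0.21 ± 0.07, SE, adjusted p = 0.0136, edgeR). Its call was lost in the test against 1.5-fold and barely kept without hNK replicate 2 (adjusted p = 0.0475, edgeR). *Pik3ca*, the widely expressed p110 alpha, was at 186 ± 2.40 and 197 ± 8.65 CPM and was not called. *Pik3r2*, a second p85-type subunit, rose 2.03-fold from the low level of 8.55 ± 1.35 CPM, and *Pik3r3* stayed under 2 CPM on average in both groups.

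Of 4 tested genes of the other PI3K classes, 2 rose and none fell. *Pik3r4*, the regulatory partner of the class III kinase, rose from 54.9 ± 1.196 to 66.1 ± 1.33 CPM, a call lost with scaling by library size alone (log2 ratio 0.13, adjusted p = 0.0685, edgeR) and in the test against 1.5-fold. Among 7 tested adaptors and inhibitors, *Pik3ip1* included, 3 rose and 1 fell. *Hcst*, the adaptor DAP10 that couples the receptor NKG2D to PI3K, rose 1.69-fold and *Gab2*, a docking protein for PI3K, 2.18-fold. *Irs2*, an adaptor of insulin and cytokine receptors, fell from 114 ± 5.46 to 67.3 ± 11.04 CPM.

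Of 7 phosphatases that remove the lipid products of PI3K, 2 rose and 1 fell, and *Inpp5d*, which encodes SHIP1, was among the 4 not called. A pair of related enzymes moved in opposite directions. *Inpp4a* measured 54.6, 36.9, 40.4 and 38.5 CPM in hNK and 122, 123, 129 and 115 CPM in teNK, a log2 ratio of 1.51 ± 0.10. *Inpp4b* measured 67.9, 75.8, 64.7 and 43.9 CPM in hNK and 17.6, 20.4, 20.1 and 20.9 CPM in teNK, a log2 ratio of -1.70 ± 0.13. *Inppl1*, which encodes SHIP2, rose by 0.24 ± 0.06 on the log2 scale, a call lost in the same 2 alternatives (0.11 with library size alone, adjusted p = 0.165).

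Of 14 tested genes of AKT kinases, their activators, brakes and close kinases, 5 rose and 4 fell, with a median log2 ratio of -0.00. *Sgk1*, a kinase related to AKT that mTORC2 activates, measured 91.7, 90.7, 101 and 80.6 CPM in hNK and 441, 393, 461 and 418 CPM in teNK. It rose 4.71-fold (log2 ratio 2.24 ± 0.08, adjusted p = 7.72e-13, edgeR). *Akt2*, which encodes another AKT kinase, rose from 95.2 ± 8.54 to 125 ± 5.32 CPM. *Gsk3b*, a kinase that AKT inhibits, rose by 0.39 ± 0.06 on the log2 scale. *Phlpp1*, a phosphatase of AKT, fell by 0.47 on the log2 scale, and *Trib2*, a pseudokinase that binds AKT, fell from 7.96 ± 1.31 to 2.58 ± 0.516 CPM.

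Of 12 genes of the mTOR complexes, *Rptor* alone rose, 6 fell and 5 were not called, with a median log2 ratio of -0.28. Without *Mtor* and *Rptor*, 6 of 10 fell and none rose, with a median of -0.41. *Prr5*, a subunit of mTORC2, measured 20.6, 20.9, 20.6 and 19.7 CPM in hNK and 10.8, 9.27, 10.52 and 10.2 CPM in teNK, a log2 ratio of -1.01 ± 0.10. *Prr5l*, a related mTORC2 partner, fell from 89.1 ± 4.12 to 58.7 ± 4.84 CPM. *Akt1s1*, which encodes PRAS40, an mTORC1 inhibitor that AKT phosphorylates, fell from 14.3 ± 0.456 to 8.83 ± 0.331 CPM, and *Tti2*, an assembly factor of mTOR, from 29.4 ± 2.104 to 22.4 ± 1.80 CPM. In the list of the TSC complex and RHEB, 3 of 6 tested genes fell, *Tsc1* among them, and none rose. *Rheb*, the GTPase that activates mTORC1 and that TSC switches off, fell from 96.5 ± 2.94 to 81.3 ± 2.57 CPM.

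Of 29 tested genes of amino acid sensing upstream of mTORC1, 6 rose and 12 fell, with a median log2 ratio of -0.08. *Sesn2*, a leucine sensor induced by stress, fell from 37.1 ± 2.91 to 12.9 ± 1.84 CPM, whereas its relative *Sesn1* rose from 77.8 ± 4.09 to 113 ± 6.70 CPM. *Lamtor1*, the membrane anchor of the Ragulator complex, fell from 29.3 ± 1.83 to 17.3 ± 1.44 CPM, and *Wdr59*, a subunit of GATOR2, from 20.2 ± 2.09 to 12.6 ± 0.825 CPM. Among 16 genes listed as mTORC1 substrates, some of which, such as *Rps6*, act further downstream, 4 rose and 4 fell. *Eif4ebp1*, a repressor of translation that mTORC1 inactivates, measured 26.02, 29.4, 33.8 and 37.9 CPM in hNK and 4.67, 5.78, 5.14 and 4.66 CPM in teNK. It was 6.16-fold lower in teNK (log2 ratio -2.62 ± 0.13). *Rps6* fell from 654 ± 47.0 to 386 ± 27.5 CPM and *Larp1*, which binds messages of ribosomal proteins, from 237 ± 22.4 to 154 ± 4.29 CPM. *Tfeb*, a transcription factor of lysosome genes held in the cytosol by mTORC1, rose from 23.2 ± 1.84 to 37.7 ± 2.57 CPM.

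Of 13 tested FOXO factors and regulators, 7 rose and 2 fell, with a median log2 ratio of 0.20; without *Foxo1* and *Foxo3* these were 5 and 2 of 11, with a median of 0.09. *Stk4*, the kinase MST1, which can phosphorylate FOXO, rose from 368 ± 20.5 to 531 ± 17.2 CPM. Of the 14-3-3 genes, whose proteins hold phosphorylated FOXO in the cytosol, *Ywhaq* rose by 0.47 ± 0.07 and *Ywhab* by 0.34 ± 0.07 on the log2 scale, and *Ywhag* fell from 142 ± 4.95 to 104 ± 7.75 CPM.

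Genes known as FOXO targets were split. Of 27 tested, 14 rose, 11 fell and 2 were not called, with a median log2 ratio of 0.17. With scaling by library size alone, 11 were higher and 13 lower, so the majority turned. Like the other lists, this list was put together with earlier results of these data known and gives no independent evidence of a direction. *Klf2*, a transcription factor of lymphocyte egress and quiescence, measured 209, 204, 209 and 165.5 CPM in hNK and 812, 833, 821 and 976 CPM in teNK, 4.36-fold higher. *Gadd45b*, a stress response gene, rose from 2.02 ± 0.345 to 18.9 ± 3.42 CPM. *Cdkn1a*, the cell cycle inhibitor p21, fell from 38.3 ± 1.38 to 5.62 ± 0.687 CPM. *Klf2* and *Gadd45b* thus moved opposite to *Cdkn1a*.

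**Figure D4:**
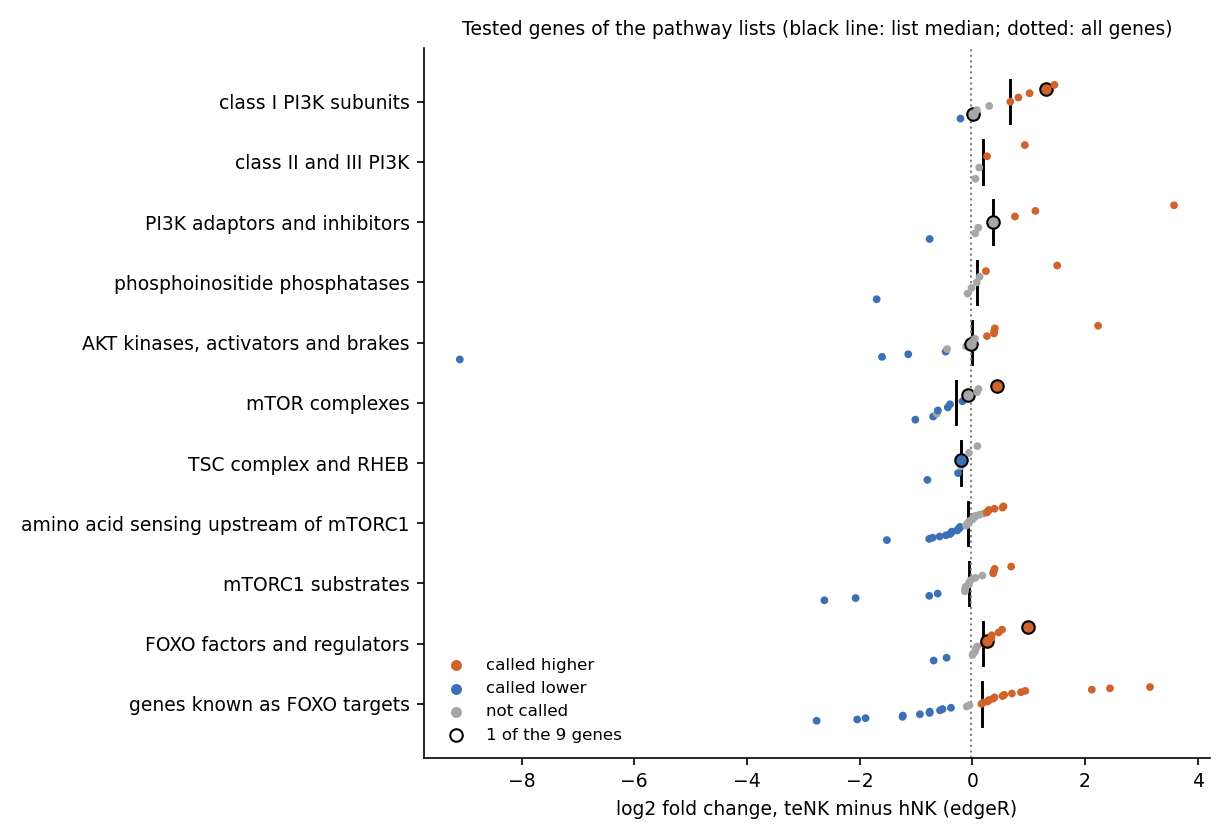
Log2 ratio (x axis, teNK over hNK) of every tested gene of the 11 pathway lists (rows); orange was called higher, blue lower and grey not, ringed dots are the 9 genes, the black line is the list median and the dotted line that of all genes. Class I PI3K subunits lie mostly to the right (median 0.68) and mTOR complex genes mostly to the left (median -0.28), and the dot near -9 is *Trib3*, a low-count value in teNK.

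For each of the 9 genes, the tested gene with the most similar pattern was found by Pearson correlation of log2 CPM over the 8 libraries, among 9360 genes of moderate or high level, at 2 or more in mean log2 CPM (9361 for *Pik3ip1*). The closest were *Prf1* to *Pik3r1* (r = 0.999), *Cd226* to *Foxo3* (r = 0.999), *Ikbkb* to *Rptor* (r = 0.999) and *Tusc3* to *Foxo1* (r = 0.995). For the genes that were not called or only narrowly called, they were *Mier2* to *Pik3cd* (r = 0.9751), *Tmem39b* to *Pik3ip1* (r = 0.949), *Eif1b* to *Akt1* (r = 0.917), *Pola2* to *Mtor* (r = 0.978) and *Uvssa* to *Tsc1* (r = 0.976). Each r is the highest of its search over only 8 libraries in 2 groups, so high values come in part from the search itself. The values describe likeness in these libraries only.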

How the data were processed

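Poly(A) RNA of 8 libraries (4 hNK, 4 teNK) was sequenced from a stranded kit, per the labels' protocols. The authors deposited 1 file per library of raw read counts for 54838 Ensembl genes. Per the submitters' processing notes, HISAT2 2.1.0, SAMtools, HTSeq and the build GRCm38 were used. Their settings and the strand choice are not given in the sources used here. Summary lines stayed out of library sizes and tests: reads in no gene made 32.3% to 41.2% of a library and ambiguous reads 1.52% to 2.07%. GENCODE M21 (GRCm38) gave symbols, coordinates and exon lengths for 54809 identifiers, and 29 had no match. RefSeq gave start sequences (all 9 genes matched).

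In edgeR 4.0.16 (R 4.3.3), genes kept by filterByExpr (13903 of 27313 with a read) got TMM scaling factors, and group was tested by quasi-likelihood F test. The SE is the log2 fold change over the square root of F. Shares were tested by exact permutation in SciPy 1.17.1. Alternatives were other scalings, filters, DESeq2 1.42.0, limma 3.58.1 voom, a test against 1.5-fold, a replicate block and leaving out libraries. Counts were also simulated for 13903 genes, with 50 genes changed at each fold and the spread taken from the trend over genes. There 30% of 1.25-fold, 60% of 1.5-fold, 94% of 2-fold and 100% of 4-fold changes were recovered. The simulation held 150 calls in all and the real comparison 7222, so the adjustment was stricter there. These rates therefore do not carry over to the real comparison. No pair of libraries within a group agreed within sampling noise (chi-square per degree of freedom 3.51 to 11.3), so all 8 were counted.

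The 9 genes and the lists were chosen with earlier results of these data known. Named beside them were up to 4 called genes per list by smallest adjusted p, given a mean log2 CPM of 2 or more, the genes of the 5 shares, and the closest pattern to each of the 9. *Inpp5d*, *Trib3* and the single cell type markers were named after their values were seen. Some genes the rule named, and 1 of the 5 shares, are not reported here. Intervals are 95% intervals of the fit.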

Additional observations from a re-analysis of the deposited data

Results flagged for a closer look

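In groups of 4 libraries, 5 of 110 sets of values held a library far from the other 3 by Dixon's test at the 95% level. For independent, normally distributed sets the test would flag about 1 in 20. The 110 sets come from the same libraries and are not independent, so that rate is only a rough guide and cannot tell chance from other reasons. *Mtor* was at 93.8 CPM in teNK replicate 2 and at 84.7 to 86.2 CPM in the other teNK libraries. *Phlpp1*, the AKT phosphatase, was at 36.8 CPM in teNK replicate 1 and at 42.5 to 42.6 CPM in the others. *Cdkn1a* was at 6.65 CPM in teNK replicate 1 and at 5.22 to 5.33 CPM in the others. *Klf2* was at 165 CPM in hNK replicate 4, below 204 to 209 CPM in the other hNK libraries, and at 976 CPM in teNK replicate 4, above 812 to 833 CPM in the other teNK libraries. All of these were found in the measurement the comparison used, and each gene kept the side of the threshold it has with all libraries when that library was left out.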

How the results depend on the processing

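The calls of *Pik3r1* and *Foxo3* held in all 18 alternatives, with log2 fold changes of 1.17 to 1.34 and 0.86 to 1.01. The hNK libraries, down to 5202131 reads, limit the smallest changes. Scaling by library size alone moved the median of all genes from -0.02 to -0.15 and the called genes from 3665 higher and 3557 lower to 2709 and 5114, so that 34.6% in place of 50.7% of calls were higher. With it, 3 of the 9 genes were called lower in place of 1, as *Akt1* (-0.15, adjusted p = 0.0446, edgeR) and *Mtor* (-0.20, 0.0488) joined *Tsc1*. Relative to the shifted median these were small changes. The counts higher became 1 for class II and III PI3K, 1 for phosphatases and 3 for amino acid sensing, and those lower became 2 for phosphatases, 7 for AKT kinases and 8 for mTORC1 substrates; FOXO targets went from 14 higher and 11 lower to 11 and 13. Of the genes not called, *Pik3cd* turned below 0 with it (-0.12), with upper-quartile factors (-0.025), with the stricter filter (-0.014) and without both shallow hNK libraries (-0.027), and ran from -0.032 to 0.069 with a library left out. *Pik3ca* (-0.048), *Foxo4* (-0.067) and *Rictor* (-0.019) turned with library size alone. With a library left out, *Akt1* ran from -0.048 to 0.032 (without teNK replicate 2) and *Mtor* from -0.13 to 0.0096 (without hNK replicate 1), none of them called. Genes lower among the 9 numbered 0 with no filter, against 1.5-fold, in DESeq2 and with the replicate block, and 0 to 1 when a library was left out. Against 1.5-fold, 2 of the 9 were higher, with 1297 higher and 850 lower among all genes. The replicate block lost the call of *Tsc1* (-0.19, adjusted p = 0.0570, edgeR) and kept 4 of the 9 higher; over all genes it gave 3581 higher and 3401 lower. Libraries with equal numbers correlated in their deviations at -0.11 to 0.15, and not every library correlated best with its own. The labels do not say whether equal numbers share a day or a preparation, and these correlations cannot tell. *Pik3ip1* was not called in any of its 17 alternatives (0.23 to 0.62; it did not pass the stricter filter). On raw reads without length, of the 4 shares given, those of *Foxo1* (-9.17 points) and *Rptor* (4.78 points) passed adjustment (adjusted p = 0.0476, exact permutation test). With a library left out no share can reach an exact p of 0.05, and the difference for *Pik3cd* ran from -2.02 to 0.049 points (without hNK replicate 1). Leaving out both shallow hNK libraries was chosen after seeing the data. The cause of these shifts was not tested.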
